A study of Mus musculus with 12 samples.

Results

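The genes described here are 34 genes of glucose uptake, glycolysis, lactate handling and the response to low oxygen, taken by gene name from the deposited expression table of 51912 genes and measured in all 12 libraries. They comprise 2 glucose transporters, 16 genes of glycolysis, 4 genes of lactate production and transport, and 12 genes around hypoxia-inducible factor (HIF). The cells were primary cortical neurons from C57BL/6J mouse embryos (E17.5), taken after the meninges were removed. They were first held for 3 h in a serum-containing plating medium with added glucose and then kept in neurobasal maintenance medium with B27 supplement. After 1 h more the cultures received either the DMSO solvent control or erinacine S, a compound of the mushroom Hericium erinaceus, at a final concentration of 1 µg/mL, and they were kept for 16 h or 48 h. There were 4 groups of 3 libraries, 1 group for each treatment at each time. The labels number the libraries of a group as repeats, and nothing says which embryos, dishes or days they came from, so the p-values below measure no more than the spread among these libraries, and that spread may be technical. Values are TPM, a transcript abundance per length scaled to the same total in every library. The scale keeps no read depth, so the depth behind each value is unknown. Gene identifiers and positions are those of the deposited table, on GRCm38.p5 by the submitters' processing notes.

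The cultures carried the markers of cortical neurons. The 10 neuronal markers, led by Tubb3 and Neurod6, summed to 3874 to 4694 TPM over the 6 libraries of 16 h and to 5113 to 5519 TPM over the 6 of 48 h. Other cells were also present. The 7 astrocyte markers, led by Slc1a3 and Aldh1l1, summed to 44.2 to 60.6 TPM at 16 h and, in 5 of the 6 libraries, to 91.9 to 111 TPM at 48 h. The 8 microglial markers, led by Ctss and Tyrobp, summed to 26 to 49.3 TPM at 16 h, and at 48 h to 22.3, 28.1 and 31.4 TPM with DMSO and 1.60, 10.3 and 13.3 with erinacine S. None of the 5 endothelial markers, led by Pecam1 and Kdr, reached a mean of 1 TPM, and no marker of any list was at 0 in all libraries. Erinacine S 48 h replicate 1 stood apart, with the lowest sum of microglial markers (1.60 TPM), of astrocyte markers (42.9 TPM), of the 6 markers of dividing cells led by Pcna and Top2a (129 TPM, against 228 and 229.9 in the other two libraries of its group), and of the 7 markers of radial glia and intermediate progenitors led by Vim and Sox2 (171 TPM, against 299 and 300.2). In these bulk libraries fewer cells of a type and less RNA per cell cannot be told apart, and results below that rest on this library are given with and without it.

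Glycolysis turns glucose into pyruvate. Hexokinase traps glucose in the cell, phosphofructokinase commits it to the pathway, and pyruvate kinase closes it. Pyruvate either enters the mitochondria or is reduced to lactate and exported. HIF is a transcription factor whose alpha subunit is marked for destruction by prolyl hydroxylases when oxygen is present, and when oxygen is scarce it raises many genes of glycolysis along with Vegfa, Bnip3, Pdk1 and others. It binds DNA at a short core sequence, ACGTG or GCGTG. In the brain, neurons take up glucose mainly through Slc2a3 while astrocytes and vessels use Slc2a1, and Eno2 and Aldoc are classical markers of neurons and astrocytes.

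The 34 genes together made up 3277 to 3921 TPM of a library. Levels per transcript length ran over a wide range. The order by mean level was led by Pkm, pyruvate kinase, at 565 to 656 TPM, followed by Aldoa, the main aldolase, at 284 to 431 TPM, and Ldhb, the lactate dehydrogenase subunit of oxidative tissues, at 276 to 374 TPM. Aldoa and Ldhb overlapped each other over the libraries, and no other gene overlapped Pkm or these 2. Eno1, Pgam1, Ldha, Pgk1, Hk1, Gpi1, Vegfa, Tpi1, Gapdh, Pfkp, Pfkm, Ndrg1 and Hif1a, the HIF alpha subunit itself, followed with means between 239 and 90.5 TPM, each overlapping its neighbours in the order. Hif1a stood at 81.4 to 98.1 TPM, above all libraries of Egln1, the main HIF prolyl hydroxylase, at 63.4 to 78.2 TPM. At the low end were Egln3, a HIF prolyl hydroxylase, at 2.2 to 4.03 TPM, Hk2, the inducible hexokinase, at 1.34 to 3.85 TPM, Ankrd37, a HIF target, at 1.60 to 3.17 TPM, and Slc16a3, a lactate exporter, at 0.503 to 3.06 TPM. Adm, which encodes the vessel-dilating peptide adrenomedullin, had a mean of 0.707 TPM (0.269 to 1.46) and fell below the mean of 1 TPM needed for testing, so 33 of the 34 genes were tested, among 15623 genes in all.

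**Figure D1:**
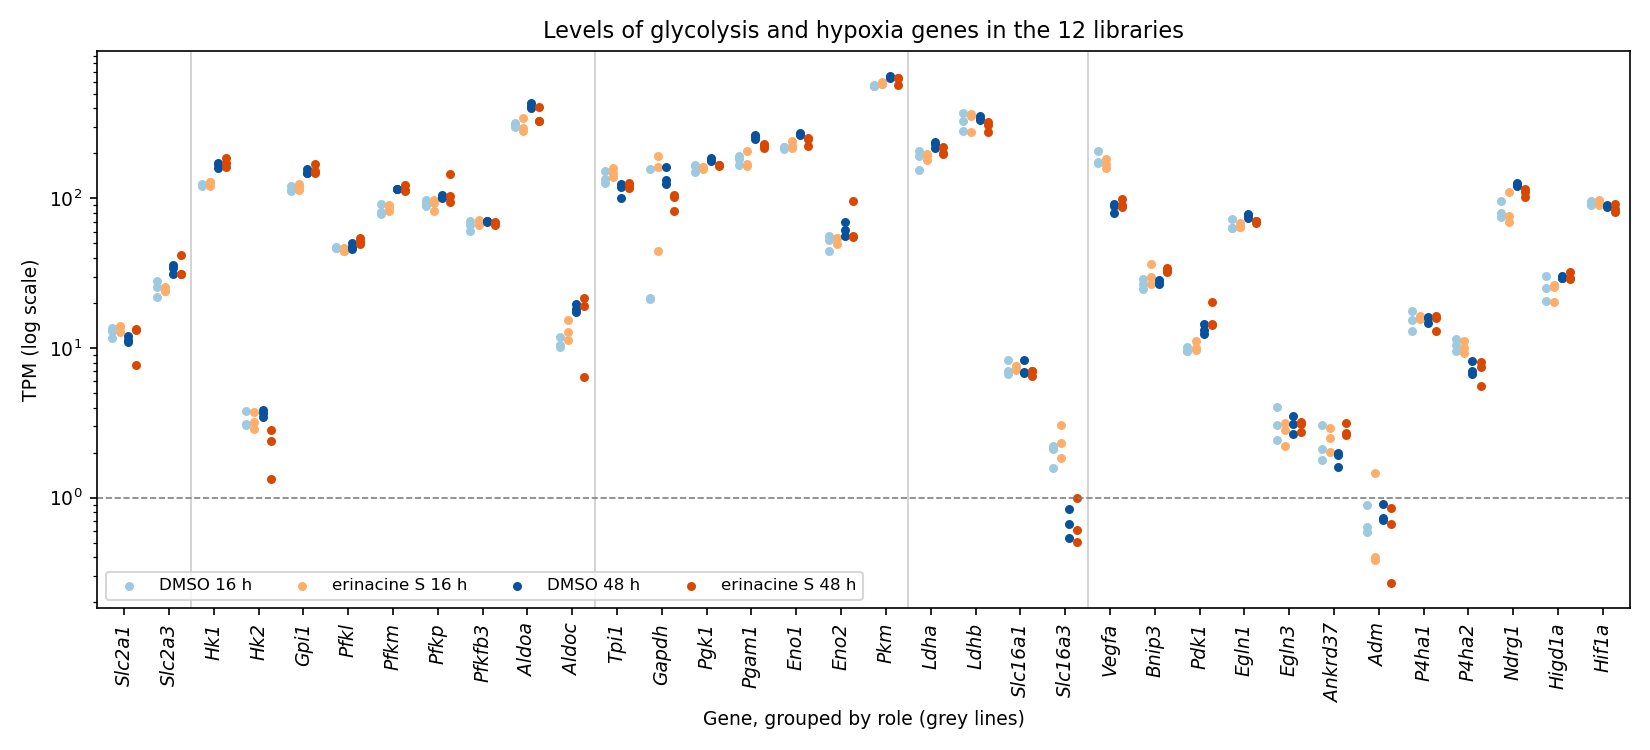
TPM on a log scale of each of the 34 genes in each of the 12 libraries, 1 point per library, coloured by group; grey lines separate glucose uptake, upper glycolysis, lower glycolysis, lactate, and HIF with its targets, and the dashed line marks 1 TPM. The genes run from Pkm, at 565 to 656 TPM, down to Adm, and Gapdh scatters within groups far more than its neighbours.

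Gapdh, the glycolytic dehydrogenase often used as a reference gene, could not be read as a single gene here. The row of Gapdh (ENSMUSG00000057666, chromosome 6, 125161715 to 125166467, minus strand) held 21.8, 157 and 21.4 TPM in DMSO 16 h replicates 1, 2 and 3, 44.8, 192 and 162 in erinacine S 16 h, 134, 125 and 161 in DMSO 48 h and 103, 82.5 and 105 in erinacine S 48 h. Replicates of the same 16 h group thus differed several-fold, and its highest library was 9.0 times its lowest. The genome holds 84 near-identical copies of Gapdh by alignment of the transcripts (at least 95% identity over at least 80% of the copy), 34 of them with a mean of at least 1 TPM. The most abundant, the processed pseudogene Gm7336 on chromosome 7, had 326 TPM, more than Gapdh. The copies summed to 1902, 1777 and 2053 TPM in DMSO 16 h, 2036, 1756 and 1857 in erinacine S 16 h, 1855, 1834 and 1838 in DMSO 48 h and 1694, 1729 and 1731 in erinacine S 48 h. Gapdh and its copies together took 1796 to 2081 TPM, a ratio of 1.16 between the highest and the lowest library, so the split of reads between Gapdh and its copies is uncertain and no direction is drawn from the Gapdh row. For the sum, the log2 fold change from 16 h to 48 h was 0.00 ± 0.07 in DMSO and -0.15 ± 0.07 in erinacine S (SE; limma, adjusted p = 0.971 and 0.106). The other copies with a mean of at least 1 TPM are Gm4735 and Eno1b for Eno1, Pgk1-rs7 and Gm5537 for Pgk1, Pgam1-ps2 for Pgam1, Gm6560 for Pkm, Gm5514 for Ldhb, Tpi-rs11 for Tpi1, Gm16439 for Bnip3 and Gm9790 for Higd1a. Summing them with their gene changed no call.

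**Figure D2:**
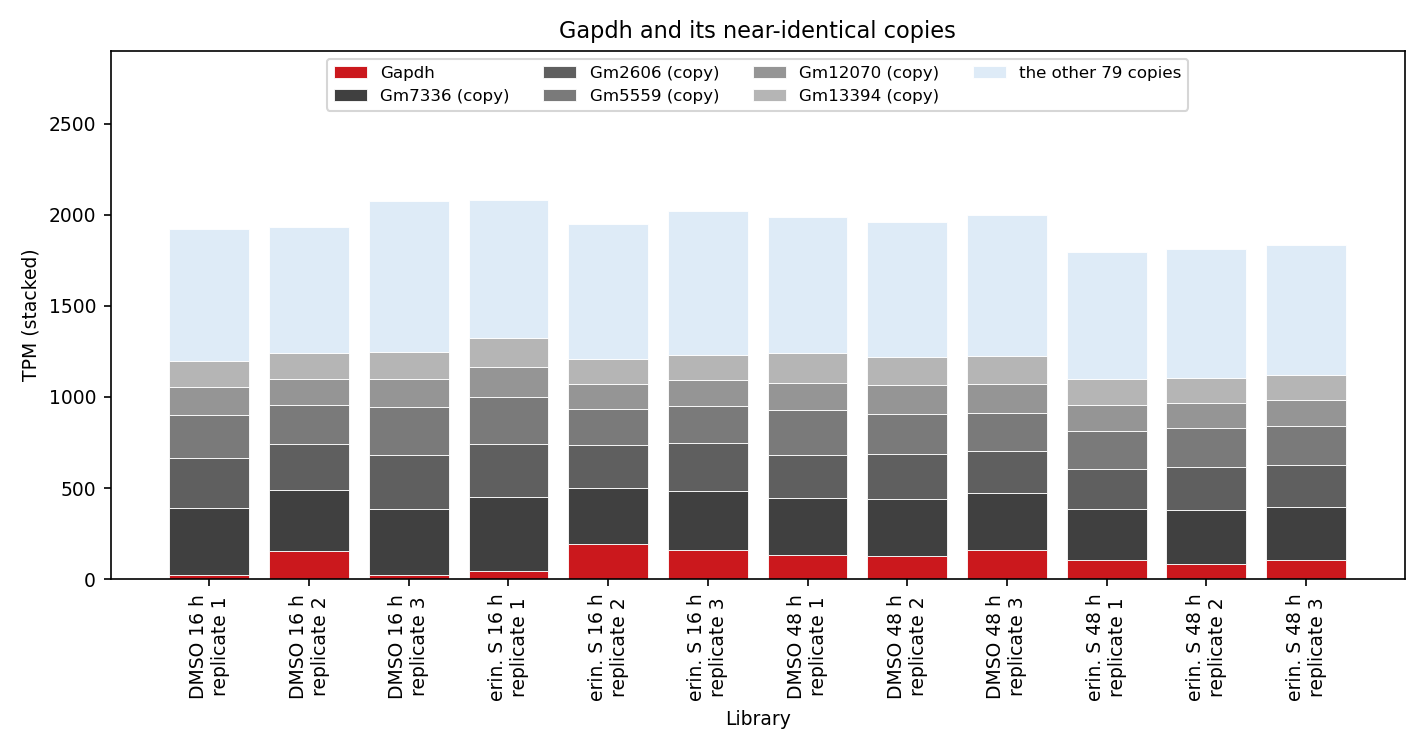
Stacked TPM of Gapdh (red), of its 5 most abundant near-identical copies (greys) and of the other 79 copies (pale blue) in each of the 12 libraries. The red part runs from 21.4 to 192 TPM while the whole column stays between 1796 and 2081 TPM.

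From 16 h to 48 h in culture with DMSO, 8 of the 16 glycolytic genes rose, led by Hk1, Pfkm and Pgam1, and Vegfa, Slc16a3, P4ha2 and Tpi1 fell. Of the 33 genes tested, 13 were called higher at 48 h (39.4%, against 16.1% of all genes tested) and 4 lower (12.1%, against 16.6%), where a call is an adjusted p below 0.05 in limma with Benjamini-Hochberg adjustment over all genes tested. In erinacine S, 7 were called higher (21.2%, against 15.1% of all genes) and 4 lower (12.1%, against 15.5%). The median log2 fold change of the 33 genes was 0.18 in DMSO and 0.09 in erinacine S, beside -0.03 over all genes tested in each. The DMSO and erinacine S time comparisons share no library. Both use the spread estimated over all 12 libraries, so their calls are not independent. They shared 6 of the higher calls, which are 46.2% of those in DMSO and 85.7% of those in erinacine S, and all 4 of the lower calls. The lower calls include Slc16a3, which passed the filter only through its 16 h groups and is no support for these counts. Aldoa, Pgk1, Eno1, Pkm, Ldha, Egln1 and Ndrg1 passed in DMSO alone, but the interaction of treatment and time had an adjusted p of 1 for each, so a difference between the treatments was not shown. The summed neuronal and astrocyte markers were also higher at 48 h, as given above. Tubb3 dominated the neuronal sum, with a mean of 1947 TPM in DMSO 16 h and 2955 TPM in DMSO 48 h. Neurod6 was lower at 48 h, with means of 796 and 505 TPM. Of the 10 neuronal markers, 7 had a positive and 3 a negative log2 fold change in DMSO. The part of these cell markers in the values of the 33 genes was not tested. The count in DMSO was 11, 10 and 11 without DMSO 48 h replicate 1, 2 or 3. It was 19 without erinacine S 48 h replicate 1, which enters this comparison only through the shared estimate of spread. The shares of all genes called in these fits are not given beside the counts. Whether the members stayed above those shares is therefore not shown.

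**Figure D3:**
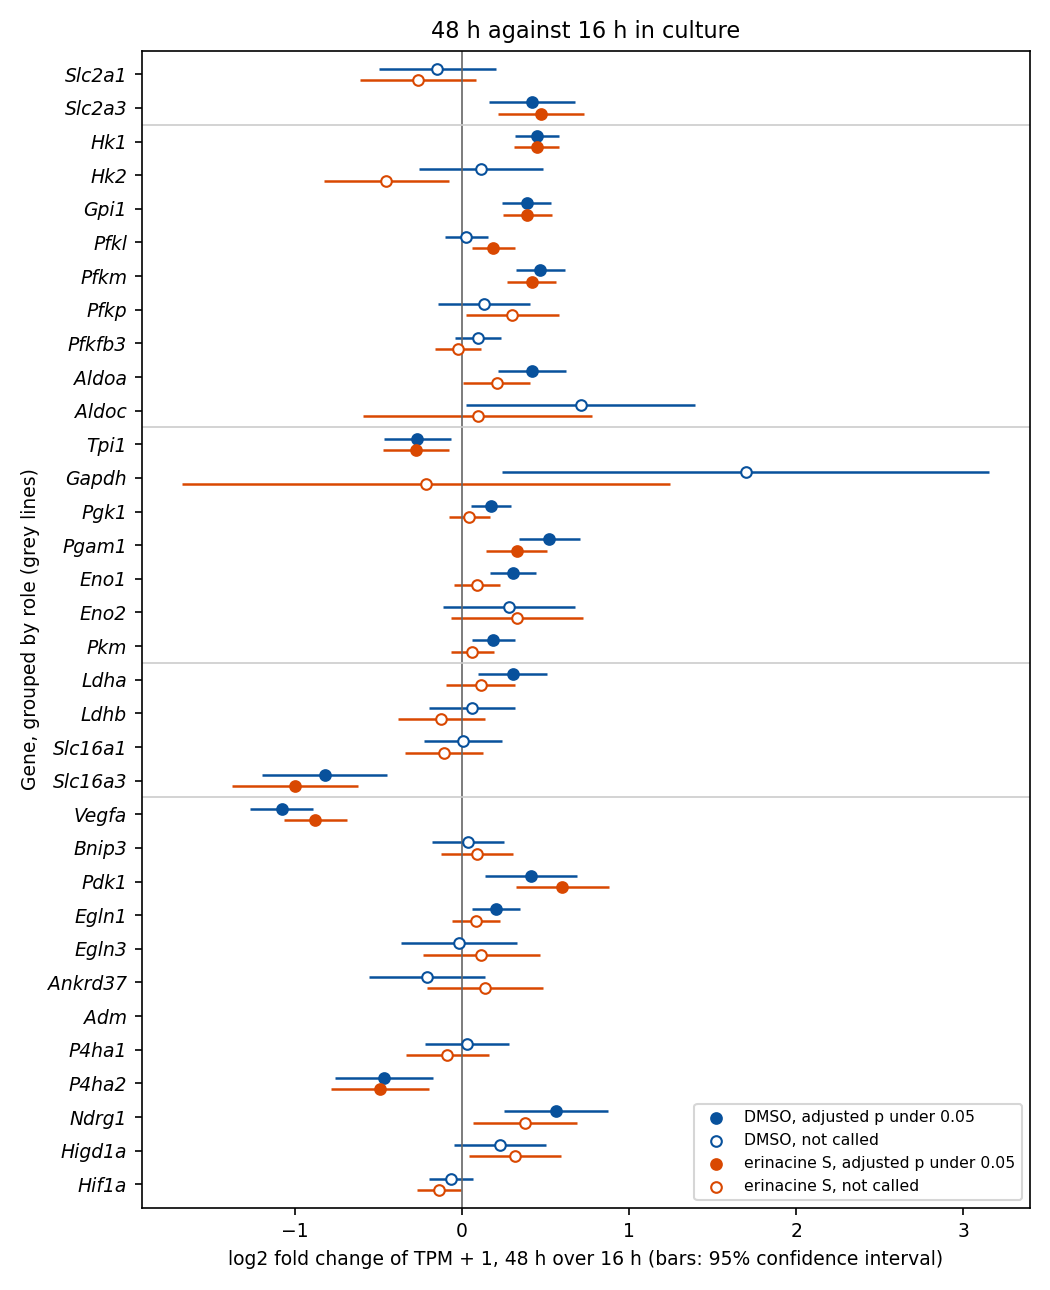
log2 fold change of TPM + 1 from 16 h to 48 h for each gene, with 95% confidence intervals, in DMSO (blue) and in erinacine S (orange); filled points passed the threshold of 0.05 on the adjusted p. Hk1, Gpi1, Pfkm, Pgam1, Slc2a3 and Pdk1 lie to the right of 0 and Vegfa, Slc16a3, P4ha2 and Tpi1 to the left in both series, and the interval of Gapdh is the widest.

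Of the glucose transporters, the neuronal one rose. Slc2a3 (ENSMUSG00000003153, chromosome 6, 122727809 to 122801640, minus strand) was at 28.1, 22.0 and 25.4 TPM in the 3 libraries of DMSO 16 h and at 31.3, 34.3 and 36.1 in those of DMSO 48 h. In erinacine S it was at 24.2, 24.0 and 25.5 TPM at 16 h and 41.9, 31.4 and 31.3 at 48 h. The times did not overlap under either treatment, and the log2 fold changes were 0.42 ± 0.12 and 0.48 ± 0.12 (SE; limma, adjusted p = 0.018 and 0.0103). Slc2a3 overlaps the pseudogene Gm4482 on the same strand, which had a mean of 15.2 TPM. Slc2a1, at 12.8 ± 0.945 TPM in DMSO 16 h and 11.4 ± 0.474 in DMSO 48 h (SD, n = 3), was not called (log2 fold change -0.15 ± 0.16, adjusted p = 0.508). The share of Slc2a1 in the sum of both transporters was 31.7%, 38.1% and 31.5% in DMSO 16 h and 26.1%, 25.8% and 23.8% in DMSO 48 h, without overlap. A two-sided exact permutation test of 3 against 3 libraries gave p = 0.1, the smallest value this design allows. Shares of other related genes were compared in the same way, without adjustment for their number.

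Upper glycolysis, from hexokinase to aldolase, had 4 of 9 genes called higher in DMSO and 4 of 9 in erinacine S (44.4% each, against 16.1% and 15.1% of all genes), with none lower. Hk1 (ENSMUSG00000037012, chromosome 10, 62268855 to 62379908, minus strand), the hexokinase of the brain, was at 121, 124 and 122 TPM in DMSO 16 h and 170.2, 160.1 and 172 in DMSO 48 h, and at 129, 120.5 and 129 and 185, 171 and 162 in erinacine S. Every 48 h library lay above every 16 h library, and the log2 fold changes were 0.45 ± 0.06 and 0.45 ± 0.06 (adjusted p = 0.000326 and 0.00038). Pfkm (ENSMUSG00000033065, chromosome 15, 98092589 to 98132447, plus strand), the muscle form of phosphofructokinase, was at 91.0, 78.1 and 81.4 TPM in DMSO 16 h and within a narrow band of 116, 116 and 116 in DMSO 48 h. In erinacine S it was at 89.8, 87.1 and 82.5 and 122, 112 and 113, again without overlap of the times. Its log2 fold changes were 0.47 ± 0.07 and 0.42 ± 0.07 (adjusted p = 0.00042 and 0.000969). Gpi1 (ENSMUSG00000036427, chromosome 7, 34201330 to 34230336, minus strand), which turns glucose phosphate into fructose phosphate, was at 121, 113 and 112 TPM in DMSO 16 h and 149, 147 and 157 in DMSO 48 h, and rose by 0.39 ± 0.07 in DMSO and 0.39 ± 0.07 in erinacine S on the log2 scale (adjusted p = 0.00137 and 0.00152).

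Aldoa (ENSMUSG00000030695, chromosome 7, 126795234 to 126809108, minus strand) passed in DMSO, from 311, 319.6 and 301 TPM to 414, 403 and 431 (log2 fold change 0.42 ± 0.09, adjusted p = 0.00535). In erinacine S its libraries were at 343, 284 and 295 TPM at 16 h and 409.5, 328 and 329.9 at 48 h, overlapping, and it was not called (0.21 ± 0.09, adjusted p = 0.111, and 0.10 ± 0.08, adjusted p = 0.378, without erinacine S 48 h replicate 1). Pfkl, the liver form of phosphofructokinase, was called in erinacine S (0.19 ± 0.06, adjusted p = 0.0309, and 0.0569 without erinacine S 48 h replicate 1) and not in DMSO (0.03 ± 0.06). Its interaction also had an adjusted p of 1. Pfkp, Pfkfb3, which makes the activator of phosphofructokinase, and Hk2 were called under neither treatment. From 16 h to 48 h Hk2 had a log2 fold change of 0.11 in DMSO. In erinacine S Hk2 had -0.45, lower without overlap of the times, and -0.24 without erinacine S 48 h replicate 1. The overlap of Aldoa with Fam57b, of Pfkm with Senp1 and of Pfkp with Pitrm1 is on the opposite strand, and whether the counting used strand is not given in the sources used here.

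Aldoc, the aldolase of astrocytes, depended on 1 library. It was at 10.5, 11.9 and 10.2 TPM in DMSO 16 h, 15.4, 12.8 and 11.3 in erinacine S 16 h, 18.2, 19.8 and 17.3 in DMSO 48 h and 6.43, 19.2 and 21.6 in erinacine S 48 h. Erinacine S 48 h replicate 1, at 6.43 TPM, was the lowest of all, whereas the other five 48 h libraries lay above every 16 h library. With all libraries it was not called in DMSO (0.71 ± 0.31, adjusted p = 0.101) or in erinacine S (0.10 ± 0.31, adjusted p = 0.845). Without that library it was called higher in both, by 0.71 ± 0.11 (adjusted p = 0.000582) and 0.60 ± 0.12 (adjusted p = 0.00536). In DMSO that library enters only through the shared estimate of spread, and the change itself was the same. The astrocyte markers summed to 42.9 TPM in that library and to 91.9 to 111 TPM in the others of 48 h, and their part in the Aldoc values was not tested.

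In lower glycolysis, 4 of 7 genes were called higher in DMSO (57.1%, against 16.1% of all genes) and 1 lower. In erinacine S 1 was higher and 1 lower (14.3% each, against 15.1% and 15.5% of all genes), near the background. Pgam1 (ENSMUSG00000011752, chromosome 19, 41911871 to 41918664, plus strand), phosphoglycerate mutase, was at 191, 182 and 166 TPM in DMSO 16 h and 264, 262 and 249.6 in DMSO 48 h, and at 206, 169 and 166 and 232, 218 and 226 in erinacine S. The times did not overlap, and the log2 fold changes were 0.52 ± 0.08 and 0.33 ± 0.08 (adjusted p = 0.000818 and 0.0117). Its copy Pgam1-ps2, identical over its whole length, had a mean of 59.2 TPM, and with it the changes were 0.55 ± 0.09 and 0.34 ± 0.09. Eno1 (ENSMUSG00000063524, chromosome 4, 150236721 to 150248879, plus strand), the general enolase, was at 212, 221 and 219 TPM in DMSO 16 h and 272, 270.5 and 267 in DMSO 48 h, a change of 0.31 ± 0.06 (adjusted p = 0.00341). In erinacine S it was at 242, 219 and 223 and 223, 255 and 250.1 TPM, overlapping, and was not called (0.09 ± 0.06, adjusted p = 0.3, and 0.15 ± 0.06, adjusted p = 0.0891, without erinacine S 48 h replicate 1). Pgk1, phosphoglycerate kinase, and Pkm rose in DMSO by 0.18 ± 0.06 and 0.19 ± 0.06 (adjusted p = 0.0304 and 0.0295), and in erinacine S had 0.05 ± 0.06 and 0.06 ± 0.06, the latter 0.12 ± 0.05 without that library. In DMSO the Pkm call was lost when any 1 of the 6 DMSO libraries was left out, and the Pgk1 call when DMSO 16 h replicate 2 or any 1 of the DMSO 48 h libraries was.

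Tpi1, triosephosphate isomerase, was the only glycolytic enzyme called lower, under both treatments. It was at 135, 126 and 152 TPM in DMSO 16 h and 100.2, 118 and 124 in DMSO 48 h, and at 148, 139 and 159 and 118, 128 and 123 in erinacine S. No 48 h library reached a 16 h library of its treatment, and the log2 fold changes were -0.27 ± 0.09 and -0.27 ± 0.09 (adjusted p = 0.0427 and 0.0403). Both calls were close to the threshold and were lost with no filter on low values or with median-ratio scaling. The DMSO call was also lost with only the libraries compared, and without DMSO 16 h replicate 1 or 3 or DMSO 48 h replicate 1 or 2. The erinacine S call was lost without erinacine S 16 h replicate 1 or 3, or without any 1 library of erinacine S 48 h. The neuronal enolase Eno2 was not called in DMSO with all libraries (0.28 ± 0.18, adjusted p = 0.251) and was called without erinacine S 48 h replicate 1 (0.28 ± 0.10, adjusted p = 0.0411). That library enters the DMSO comparison only through the shared estimate of spread. The Eno2 groups overlapped, at 55.9, 52.8 and 44.3 TPM in DMSO 16 h and 55.7, 61.3 and 69.7 in DMSO 48 h.

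Around lactate, the exporter Slc16a3 fell and Ldha rose in DMSO, while Ldhb and the transporter Slc16a1 were not called. Slc16a3 (ENSMUSG00000025161, chromosome 11, 120948480 to 120960868, plus strand) was at 2.22, 1.59 and 2.13 TPM in DMSO 16 h and 0.664, 0.845 and 0.536 in DMSO 48 h, and at 1.85, 2.32 and 3.06 and 0.994, 0.609 and 0.503 in erinacine S. All 6 libraries of 16 h lay above 1.5 TPM and all 6 of 48 h below 1 TPM. The gene therefore passed the filter on a mean of at least 1 TPM only through its 16 h groups, the single tested member with group means under 1 TPM, so its lower call is given as a description and as no support for the count. The log2 fold changes, which the pseudocount of 1 makes smaller at such levels, were -0.82 ± 0.17 and -1.0 ± 0.17 (adjusted p = 0.00387 and 0.00148), and both were also called with no filter on low values. The share of Slc16a3 in the sum with Slc16a1 went from 21.2% ± 1.97 to 8.58% ± 2.41 in DMSO and from 24.3% ± 4.52 to 9.23% ± 2.91 in erinacine S (SD, n = 3; two-sided exact permutation p = 0.1 each, the smallest possible). Ldha (ENSMUSG00000063229, chromosome 7, 46841475 to 46855627, plus strand), the lactate dehydrogenase subunit that favours lactate, was at 208, 155 and 192 TPM in DMSO 16 h and 216, 236 and 229 in DMSO 48 h, called higher by 0.30 ± 0.09 (adjusted p = 0.0289). In erinacine S it had 0.11 ± 0.09 (adjusted p = 0.392).

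Genes of the HIF group were called in both directions. In DMSO 3 of its 11 tested genes were higher (27.3%, against 16.1% of all genes) and 2 lower (18.2%, against 16.6%). In erinacine S 1 was higher (9.09%, against 15.1%) and 2 lower (18.2%, against 15.5%). The lower counts and those of erinacine S were thus near or under the shares of all genes. Vegfa (ENSMUSG00000023951, chromosome 17, 46016993 to 46032369, minus strand), the growth factor of blood vessels, had the smallest p of the 33 genes. It was at 172, 206 and 175 TPM in DMSO 16 h and 79.4, 88.9 and 91.5 in DMSO 48 h, and at 160.1, 182 and 169 and 99.3, 89.9 and 88.2 in erinacine S. The lowest 16 h library, at 160.1 TPM, stood far above the highest 48 h library, at 99.3 TPM. The log2 fold changes were -1.08 ± 0.09 and -0.88 ± 0.09 (adjusted p = 1.29e-05 and 5.28e-05). P4ha2 (ENSMUSG00000018906, chromosome 11, 54100095 to 54131665, plus strand), a collagen prolyl hydroxylase, was at 10.4, 11.5 and 9.51 TPM in DMSO 16 h and 7.03, 6.71 and 8.23 in DMSO 48 h, a change of -0.47 ± 0.13, with -0.49 ± 0.13 in erinacine S (adjusted p = 0.0202 and 0.0167). The 5 endothelial markers summed to 1.15 to 2.12 TPM at 16 h and 0.496 to 1.18 at 48 h, and the 7 markers of pericytes and fibroblasts, led by Dcn and Pdgfrb, to 4.16 to 6.61 and 0.833 to 3.59, and their part in the lower Vegfa, Slc16a3 and P4ha2 values was not tested. The sister gene P4ha1 was not called (0.03 ± 0.11 and -0.09 ± 0.11).

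Pdk1 (ENSMUSG00000006494, chromosome 2, 71873224 to 71903858, plus strand), a kinase that holds pyruvate out of the mitochondria, rose. It was at 10.1, 9.53 and 9.60 TPM in DMSO 16 h and 13.2, 12.3 and 14.4 in DMSO 48 h, and at 11.2, 9.95 and 9.73 and 20.4, 14.2 and 14.4 in erinacine S, where replicate 1 of 48 h was the highest. The times did not overlap, with log2 fold changes of 0.41 ± 0.13 and 0.60 ± 0.13 (adjusted p = 0.0272 and 0.00457), the latter 0.44 ± 0.09 without that library (adjusted p = 0.00641). Ndrg1 (ENSMUSG00000005125, chromosome 15, 66929321 to 66969640, minus strand), a stress-induced gene also needed by myelinating cells, rose in DMSO from 96.2, 79.6 and 74.7 TPM to 126, 122 and 122 (log2 fold change 0.56 ± 0.14, adjusted p = 0.011) and in erinacine S, from 110.3, 69.8 and 76.0 to 102, 115 and 111, had 0.38 ± 0.14 (adjusted p = 0.062). Egln1 was called higher by 0.20 ± 0.07 in DMSO (adjusted p = 0.0327), a call lost in 5 of the 6 fits that left out 1 DMSO library. Hif1a had -0.06 ± 0.06 in DMSO and -0.14 ± 0.06 in erinacine S and was not called (adjusted p = 0.454 and 0.103), but the latter was called lower without erinacine S 48 h replicate 1 (-0.19 ± 0.06, adjusted p = 0.0438). Bnip3, Egln3, Ankrd37 and Higd1a, which encode a mitophagy receptor, a prolyl hydroxylase, an ankyrin repeat protein and a mitochondrial protein, were called at neither comparison of times. The 7 markers of the oligodendrocyte lineage, led by Olig1 and Olig2, had sums of 59.6 to 108 TPM with DMSO at 16 h and 201 to 233 at 48 h. With erinacine S the sums were 63.1 to 96.2 TPM at 16 h and 66.5, 174 and 187 at 48 h, where replicate 1 had the lowest sum and the lowest Ndrg1 level, and their part in the Ndrg1 values was not tested.

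**Figure D4:**
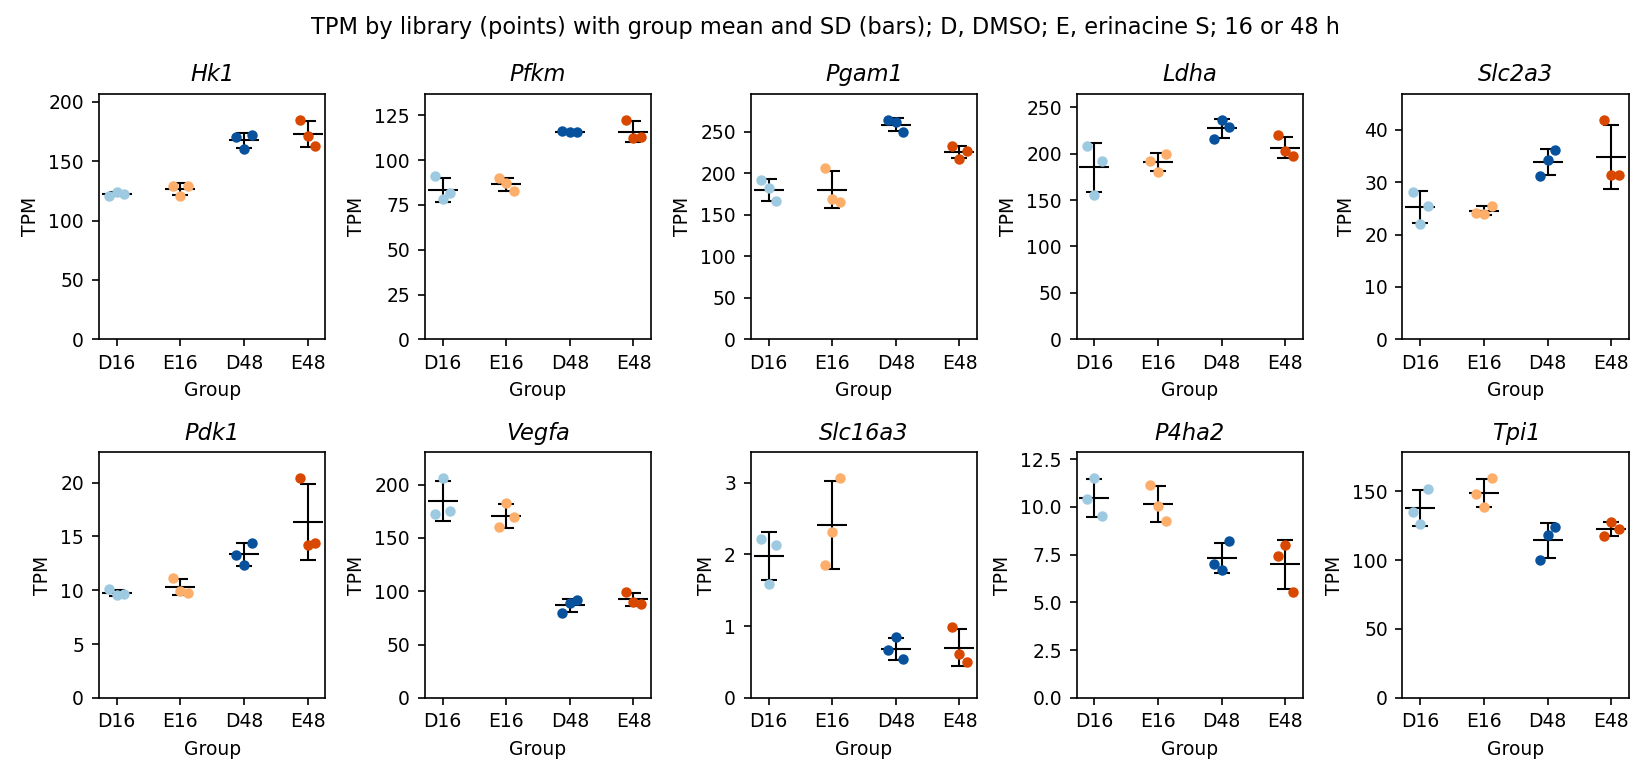
TPM of 10 genes in each library (points) with the group mean and SD (black bars) for DMSO (D) and erinacine S (E) at 16 h and 48 h, each panel on its own linear axis from 0. Hk1, Pfkm, Pgam1, Slc2a3 and Pdk1 are higher at 48 h without overlap, and Vegfa, Slc16a3, P4ha2 and Tpi1 lower, under both treatments.

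Under the 17 alternative settings run for DMSO and the 16 run for erinacine S, no called change reversed. In DMSO, 9 of the 17 calls held under every setting in which the gene was tested (Hk1, Gpi1, Pfkm, Aldoa, Pgam1, Eno1, Slc16a3, Vegfa and Ndrg1). Slc16a3 was untested with a mean of at least 5 TPM required. It is listed under both treatments as a description, as it passed the filter only through its 16 h groups. The calls of Slc2a3, Tpi1, Pgk1, Pkm, Ldha, Pdk1, Egln1 and P4ha2 were lost under at least 1 setting. In erinacine S, 7 of the 11 did (Slc2a3, Hk1, Gpi1, Pfkm, Slc16a3, Vegfa and Pdk1), and those of Pfkl, Tpi1, Pgam1 and P4ha2 were lost under at least 1.

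The promoters of these genes are shown because genes that rose and genes that fell both carry the letters of the HIF core. RefSeq start sites on GRCm38.p6 matched 32 of the 34 genes, with 46 promoters of 250 bases before to 50 bases after the start. ACGTG, searched on both strands, was in at least 1 promoter of 23 of the 32 genes (71.9%), beside 21.9% of all genes and 29.3% of the genes tested here. By promoter, the shares were 56.5% of the 46 and 19.7% of all promoters of this length. GCGTG was in 68.8%, beside 35.4% of all genes and 56.8% of those tested. CACGTG, the E-box that contains ACGTG, was in 18.8%, beside 8.11% of all genes and 11.7% of those tested. The genes were chosen as genes of glycolysis and HIF targets, so an excess of the HIF core over all genes is no finding of these libraries. ACGTG was found for 8 of the 11 genes with a promoter that were called higher in DMSO, for 3 of the 4 called lower and for 12 of the 16 not called. The 3 called lower were Slc16a3, Vegfa and P4ha2. Slc16a3 passed the filter only through its 16 h groups and is no support for this count. In the following promoters, 3 of genes that rose in DMSO and 3 of genes that fell, ACGTG and GCGTG on either strand are in capitals (CACGT and CACGC are their reverse complements). They are printed 5′ to 3′ along the strand of the gene.
Pgk1, chrX:106186850-106187149, plus strand: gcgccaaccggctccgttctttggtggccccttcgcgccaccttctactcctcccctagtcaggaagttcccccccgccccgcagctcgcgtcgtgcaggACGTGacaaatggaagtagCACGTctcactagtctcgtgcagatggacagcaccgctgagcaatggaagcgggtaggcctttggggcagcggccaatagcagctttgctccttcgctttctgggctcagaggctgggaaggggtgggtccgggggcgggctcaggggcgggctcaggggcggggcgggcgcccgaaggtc
Pgam1, chr19:41911621-41911920, plus strand: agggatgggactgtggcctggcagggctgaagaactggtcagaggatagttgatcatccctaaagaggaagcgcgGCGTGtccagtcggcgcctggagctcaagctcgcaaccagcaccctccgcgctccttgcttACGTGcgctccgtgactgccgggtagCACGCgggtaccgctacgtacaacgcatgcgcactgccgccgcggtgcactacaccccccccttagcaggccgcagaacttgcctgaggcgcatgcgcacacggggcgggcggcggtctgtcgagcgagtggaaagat
Ldha, chr7:46845554-46845853, plus strand: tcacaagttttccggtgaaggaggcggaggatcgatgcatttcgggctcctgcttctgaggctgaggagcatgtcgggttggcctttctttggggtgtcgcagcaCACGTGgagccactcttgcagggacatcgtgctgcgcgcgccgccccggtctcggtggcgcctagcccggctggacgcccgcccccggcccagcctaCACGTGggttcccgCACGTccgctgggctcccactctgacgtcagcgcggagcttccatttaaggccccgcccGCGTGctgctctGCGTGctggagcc
Slc16a3, chr11:120948817-120949116, plus strand: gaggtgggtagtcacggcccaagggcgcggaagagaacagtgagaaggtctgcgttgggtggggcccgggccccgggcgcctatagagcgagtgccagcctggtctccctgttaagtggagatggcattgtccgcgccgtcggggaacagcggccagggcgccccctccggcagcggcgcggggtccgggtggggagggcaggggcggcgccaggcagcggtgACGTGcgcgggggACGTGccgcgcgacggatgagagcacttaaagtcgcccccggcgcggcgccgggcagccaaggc
P4ha2, chr11:54100674-54100973, plus strand: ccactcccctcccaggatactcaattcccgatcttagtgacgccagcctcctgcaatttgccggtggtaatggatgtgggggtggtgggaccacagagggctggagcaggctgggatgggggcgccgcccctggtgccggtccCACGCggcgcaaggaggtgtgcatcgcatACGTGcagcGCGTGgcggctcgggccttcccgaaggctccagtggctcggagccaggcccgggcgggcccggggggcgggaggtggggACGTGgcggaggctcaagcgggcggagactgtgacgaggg
Vegfa, chr17:46032328-46032627, minus strand: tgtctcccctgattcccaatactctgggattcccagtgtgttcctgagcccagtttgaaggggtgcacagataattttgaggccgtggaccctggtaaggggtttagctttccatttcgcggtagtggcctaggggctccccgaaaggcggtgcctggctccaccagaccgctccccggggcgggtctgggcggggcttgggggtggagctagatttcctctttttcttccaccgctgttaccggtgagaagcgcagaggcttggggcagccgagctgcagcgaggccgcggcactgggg

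The Ldha promoter held ACGTG 5 times, 4 of them in the 2 copies of CACGTG, whose strands each contain it. Those of Pgk1, Slc16a3 and P4ha2 held it 2 times and that of Pgam1 1 time. The window of this Vegfa start held none, and a second Vegfa start, at chr17:46025114-46025413, held 1. A match of these letters is a description of the window and not a measured binding site.

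At 16 h, none of the 33 genes passed the test of erinacine S against DMSO (0% called, as of all genes tested). None had an unadjusted p below 0.05, beside 201 of the 15623 genes tested. The median log2 fold change was 0.04, beside 0.01 over all genes. Without Gapdh, the values ran from -0.15 for Egln3 to 0.25 for Aldoc. The 3 genes with the smallest p were Gapdh, whose row is uncertain, Bnip3 (0.19 ± 0.10, unadjusted p = 0.0822) and Pfkfb3 (0.08 ± 0.06, unadjusted p = 0.228; limma, adjusted p = 1 for each). Only Pkm had groups that did not overlap, with 574, 565 and 566 TPM in DMSO and 585, 599 and 582 in erinacine S (3.03% of the genes, against 4.19% of all genes tested). No label pairs the 16 h groups, and a pairing by library number is inferred from correlations in these same data, given below. Within such pairs Slc2a1, Gpi1, Aldoc, Tpi1, Gapdh, Pkm, Bnip3 and Pdk1 were higher with erinacine S in all 3 (24.2% of the genes, against 11.3% of all genes tested). Vegfa and Egln3 were lower in all 3 (6.06%, against 7.7%). As the pairs are inferred from these same data and the Gapdh row is uncertain, these shares are a description only. With the replicate number as a block within each time, Bnip3 had 0.19 ± 0.07 (limma, adjusted p = 1), and none of the 33 genes was called.

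At 48 h, again none of the 33 genes passed (0% called, against 0.134% of all genes tested), but 7 had an unadjusted p below 0.05, beside 1400 of all genes. The groups did not overlap for 10 (30.3%, against 19.3% of all genes tested). Of these, Hk2, Gapdh, Pgk1, Pgam1, Eno1, Ldhb, Egln1 and Ndrg1 were lower and Bnip3 and Ankrd37 higher with erinacine S, the Gapdh row being uncertain. Without erinacine S 48 h replicate 1, which leaves 2 libraries in that group, the groups did not overlap for 16 (48.5%, against 36.9% of all genes tested), and without replicate 3 for 10 (30.3%, against 30.6%), so the excess over all genes was not seen without replicate 3. Without replicate 1, 114 genes were called in place of 21, and still none of the 33. The median log2 fold change was -0.04, beside 0.01 over all genes.

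Hk2 (ENSMUSG00000000628, chromosome 6, 82725025 to 82774454, minus strand) had the smallest p. It was at 3.46, 3.85 and 3.70 TPM in DMSO 48 h and 1.34, 2.83 and 2.39 in erinacine S 48 h. The groups did not overlap, and replicate 1 of erinacine S was the lowest. The log2 fold change was -0.58 ± 0.17 (95% interval -0.95 to -0.21; adjusted p = 0.3), and -0.37 ± 0.13 without that library (adjusted p = 0.381). The share of Hk2 in the sum of Hk1 and Hk2 was 2.15% ± 0.184 in DMSO 48 h and 1.27% ± 0.480 in erinacine S 48 h (SD, n = 3; two-sided exact permutation p = 0.1, the smallest possible). Shares of the other related genes, compared at 48 h by the same permutation test, had p of 0.2 or more. No p was adjusted for the number of shares compared. The microglial markers were lowest in that library too, at 1.60 TPM, and between 10.3 and 13.3 in the other two of its group, and their part in the Hk2 values was not tested.

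Ankrd37 (ENSMUSG00000050914, chromosome 8, 45996902 to 46005707, minus strand) had 1.98, 1.94 and 1.60 TPM in DMSO 48 h and 3.17, 2.61 and 2.69 in erinacine S 48 h, without overlap. Its log2 fold change was 0.43 ± 0.16 (95% interval 0.08 to 0.78, adjusted p = 0.447). Without erinacine S 48 h replicate 1, its highest library, the change was 0.37 ± 0.17 (limma, unadjusted p = 0.0592, adjusted p = 0.59). Ankrd37 overlaps Ufsp2, at a mean of 44.7 TPM, on the opposite strand. Bnip3 (ENSMUSG00000078566, chromosome 7, 138890836 to 138909519, minus strand) had 27.3, 28.7 and 26.9 TPM in DMSO and 32.5, 34 and 32.1 with erinacine S, a log2 fold change of 0.24 ± 0.10 (95% interval 0.03 to 0.46; adjusted p = 0.508). All 3 libraries with erinacine S lay above those of DMSO.

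Among the enzymes, Aldoa had -0.23 ± 0.09 (adjusted p = 0.497), and -0.34 ± 0.08 without erinacine S 48 h replicate 1 (adjusted p = 0.111). Eno1, Pgk1 and Pgam1 had -0.15 ± 0.06, -0.13 ± 0.06 and -0.20 ± 0.08 (adjusted p = 0.508, 0.509 and 0.514), and Eno1 had -0.10 ± 0.06 without that library (adjusted p = 0.727). The 95% intervals of Hk1 and Pfkm, -0.09 to 0.18 and -0.15 to 0.14 on the log2 scale, bound any effect of erinacine S on these enzymes at 48 h more closely than that of Slc16a3, -0.36 to 0.39. None of the 33 genes passed the interaction of treatment and time (0% called, as of all genes), and 2 had an unadjusted p below 0.05, beside 432 of all genes. These were Eno1 (-0.22 ± 0.09, unadjusted p = 0.0308) and Hk2 (-0.56 ± 0.24, unadjusted p = 0.0375; limma, adjusted p = 1 for both). Without erinacine S 48 h replicate 1 neither did, Eno1 at -0.16 ± 0.08 (unadjusted p = 0.0708) and Hk2 at -0.36 ± 0.18 (unadjusted p = 0.0665), while Aldoa had -0.32 ± 0.11 (unadjusted p = 0.0128, adjusted p = 0.929). The treatment, time and interaction comparisons share libraries, so a low or high 48 h group enters more than 1 of them.

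**Figure D5:**
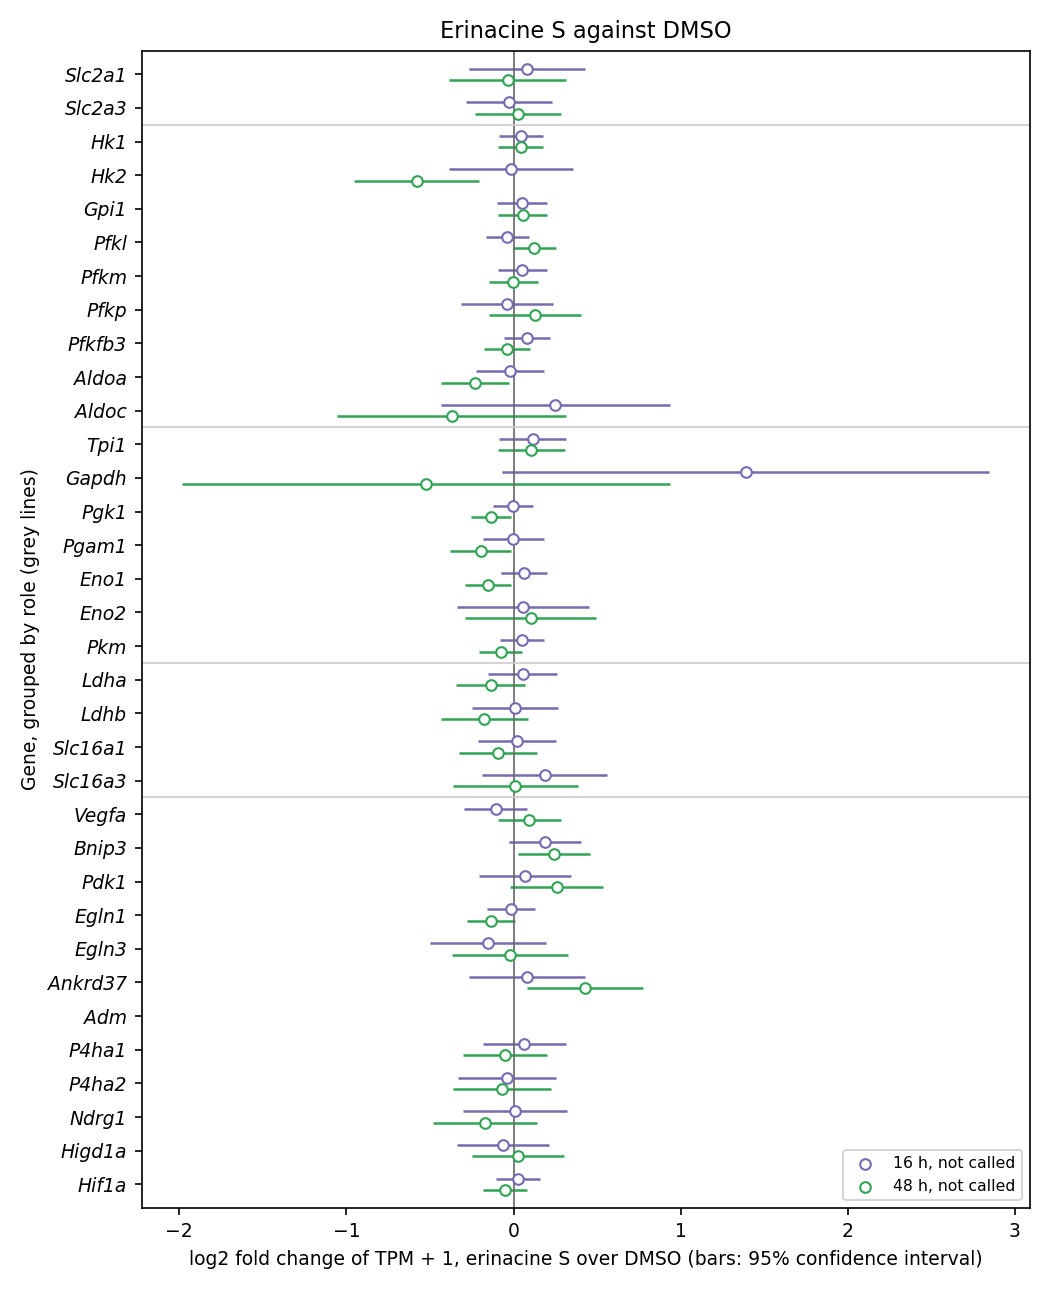
log2 fold change of TPM + 1 with erinacine S against DMSO for each gene, with 95% confidence intervals, at 16 h (purple) and 48 h (green); no point passed the threshold of 0.05 on the adjusted p. Hk2 lies farthest to the left at 48 h, at -0.58, apart from the values near 0 of most genes, and the interval of Gapdh is the widest.

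Erinacine S 48 h replicate 1 differed from the other 48 h libraries in the balance of related genes. It lay outside the range of the other 5 libraries of 48 h for 21 of the 33 genes tested (63.6%), above it for 11 and below it for 10, beside 59.3% of all genes tested, a share close to that of the members. Above it were Eno2 at 96.6 TPM against 54.8 to 69.7, Pfkp at 145 TPM against 94.2 to 106, Slc2a3 at 41.9 TPM against 31.3 to 36.1, and Pdk1 at 20.4 TPM against 12.3 to 14.4. Below it were Aldoc at 6.43 TPM against 17.3 to 21.6, Slc2a1 at 7.71 TPM against 11.02 to 13.3, and Hk2 at 1.34 TPM against 2.39 to 3.85. The share of Slc2a1 in both glucose transporters was 15.5% in this library and 29.7% and 29.8% in the other two of its group, and that of Eno2 in both enolases was 30.2%, 17.9% and 18.0%. The low sums of glial and dividing-cell markers in the same library are given above, and their part in these values was not tested. Without it, 11 genes were still called between times in erinacine S, with Aldoc and Hif1a added and Pfkl and Tpi1 lost. The share of all genes called in that fit is not given beside this count. Against DMSO at 48 h, 10 genes that were not called either way had the other sign without it. They were Hk1, Gpi1, Slc16a3, Egln3 and P4ha1, and also Slc2a1 (-0.03 ± 0.16 with it and 0.20 ± 0.09 without), Aldoc (-0.37 ± 0.31 and 0.14 ± 0.12), Eno2 (0.10 ± 0.18 and -0.16 ± 0.11), Slc2a3 (0.03 ± 0.12 and -0.11 ± 0.10) and Pfkp (0.13 ± 0.13 and -0.05 ± 0.08).

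The other genes of these pathways moved in both directions with time. Of 24 further genes of sugar transport and glycolysis, 17 were tested. In DMSO 4 were called higher and 4 lower (23.5% each, against 16.1% and 16.6% of all genes). Gpd1l and Gpd2, which tie glycolysis to glycerol phosphate, rose by 0.54 ± 0.09 and 0.49 ± 0.10 (adjusted p = 0.000921 and 0.00322), and the myo-inositol transporter gene Slc2a13 rose by 0.90 ± 0.18 (adjusted p = 0.00295). In erinacine S 5 were higher and 2 lower (29.4% and 11.8%, against 15.1% and 15.5%), among them Adpgk, an ADP-dependent glucokinase, at -0.56 ± 0.09, Slc2a13 at 0.92 ± 0.18 and Gpd1l at 0.44 ± 0.09 (adjusted p = 0.00125, 0.00307 and 0.00351). Of 14 genes that bring pyruvate into mitochondrial use, 13 were tested. In DMSO 3 rose (23.1%, against 16.1% of all genes) and none fell, Pdha1, a subunit of pyruvate dehydrogenase, by 0.37 ± 0.08, the pyruvate carrier Mpc2 by 0.31 ± 0.07 and the carboxylase Pcx by 0.48 ± 0.16 (adjusted p = 0.00477, 0.00693 and 0.0406). In erinacine S 2 rose (15.4%, against 15.1%), both carriers, Mpc2 by 0.28 ± 0.07 and Mpc1 by 0.21 ± 0.06 (adjusted p = 0.0113 and 0.0239). The calls of Pcx and Mpc1 were lost when any of several single libraries was left out, and that of Mpc2 in erinacine S without erinacine S 16 h replicate 2.

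Of 11 genes of oxygen sensing, 9 were tested, and 2 rose and 1 fell in DMSO (22.2% and 11.1%) and 1 each way in erinacine S (11.1%), near the shares of all genes. In DMSO Cul2 and Rbx1, parts of the ligase that removes HIF, rose by 0.37 ± 0.09 and 0.28 ± 0.07, and Cited2, which competes with HIF for its coactivator, fell, at -0.56 ± 0.16 (adjusted p = 0.00721, 0.0119 and 0.0215). In erinacine S Cul2 was higher and Cited2 lower, at 0.31 ± 0.09 and -0.83 ± 0.16 (adjusted p = 0.019 and 0.00327). The Cited2 call in DMSO was lost with no filter on low values, and without DMSO 16 h replicate 2 or DMSO 48 h replicate 1 or 2. The Cul2 call in erinacine S was lost without erinacine S 16 h replicate 1 or 3 or erinacine S 48 h replicate 1. Of 33 further HIF targets, 26 were tested, and in DMSO 5 rose (19.2%, against 16.1% of all genes) and 7 fell (26.9%, against 16.6%), and the median change of the 26 was -0.07 on the log2 scale beside -0.03 over all genes. The 3 with the smallest p were the chemokine receptor Cxcr4 at -0.70 ± 0.08, the ubiquitin ligase adaptor Wsb1 at -0.66 ± 0.09 and the transferrin receptor Tfrc at 0.63 ± 0.09 (adjusted p = 9.69e-05, 0.000418 and 0.000441). In erinacine S 2 rose (7.69%, against 15.1%) and 6 fell (23.1%, against 15.5%), with Mxi1, a repressor in the Myc network, at -0.53 ± 0.06, the circadian repressor Bhlhe40 at 1.23 ± 0.20 and the haem oxygenase Hmox1 at -1.0 ± 0.18 (adjusted p = 0.000196, 0.00114 and 0.00201).

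Erinacine S against DMSO called 1 gene of these 4 further lists. Cxcr4 was higher at 48 h, with 17.1, 16.3 and 17.9 TPM in DMSO and 29.9, 28.2 and 27.4 in erinacine S, without overlap (log2 fold change 0.70 ± 0.08, adjusted p = 0.00215). At 16 h none was called, and the interaction called none (Cxcr4 0.52 ± 0.11, unadjusted p = 0.000499, adjusted p = 1). The smallest p at 48 h in the other 3 lists were those of the monocarboxylate transporter Slc16a7 (0.40 ± 0.13), the pyruvate dehydrogenase phosphatase Pdp2 (0.25 ± 0.09) and Arnt, the beta subunit of HIF (0.23 ± 0.10; adjusted p = 0.376, 0.405 and 0.512).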

How the data were processed

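RNA of 12 libraries was measured in 4 groups of 3, grouped by their titles. The submitters' processing notes name StringTie 2.1.3, HISAT2, SAMtools, Trimmomatic 0.36, FastQC and bcl2fastq 2.20, and GRCm38.p5. Neither the annotation release nor the strand setting is named in the sources used here. Deposited by the authors were TPM per gene, with 0.0001 standing for 0. Read depth is unknown.

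Here log2(TPM + 1) was fitted with limma 3.58.1 in R 4.3.3 (1 mean per group, eBayes with trend, two-sided) for 15623 genes with a mean of at least 1 TPM, adjusted by Benjamini-Hochberg over all of them. Fold changes on this scale understate the change of low genes. Copies were found with BLAST 2.17.0 among GENCODE transcripts. Simulated data checked the fit.

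The members and lists were chosen with earlier results of these data known. Every member may be named. Values in every library were given by rule for the called members with the smallest p and, chosen after their values were seen, for further members. The other lists name up to 3 called genes with the smallest p, or 1 if none was called.

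Deviations from the group means correlated between DMSO and erinacine S libraries of the same number at 0.480, 0.185 and 0.510 at 16 h. Libraries of different numbers reached at most 0.109. The numbers were therefore read as pairs at 16 h, which no label states. At 48 h (-0.022, 0.107 and -0.192) and across times, libraries of the same number did not correlate in this way. Replicates correlated at 0.980 to 0.995 across genes within groups, and at most 0.173% of values in a pair were identical.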

Additional observations from a re-analysis of the deposited data

How the results depend on the processing

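The alternatives were other pseudocounts, filters and scalings, TPM without mitochondrially encoded genes, a replicate block, only the libraries compared, each library left out in turn and, chosen after seeing the data, copies summed with their gene and the DMSO time comparison without erinacine S 48 h replicate 1. Of 1350 single-gene values, no called one reversed and 80 lost their call, for 17 gene and comparison pairs. The 1350 also hold values of genes that were not called and had no call to lose. Among the members, 8 of the 17 time calls in DMSO and 4 of the 11 in erinacine S were lost under at least 1 setting. With 1 library left out, the members called between times in DMSO ranged from 10 to 19, against 17 with all, and in erinacine S from 8 to 11. The other settings gave 14 to 17 and 9 to 12. The treatment comparisons and the interaction called 0 members throughout. The replicate block gave 0 for the treatment at both times, 17 for time in DMSO and 12 in erinacine S, and changed no treatment call. These counts between times stand without the shares of all genes called in the same fits, so they give no excess over all genes. Unknown read depth limits the precision of genes near 1 TPM, such as Slc16a3 and Ankrd37.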
